A study of Bos taurus with 6 samples.

Results

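CHPF, CHST11, PAPSS1 and UGDH are 4 genes that serve the making of chondroitin sulphate, and they were read here from 1 probe set each, so 4 of the 24016 probe sets and 4 of the 9155 genes named on a bovine Affymetrix array. A probe set was taken for a gene where the platform annotation gave it that symbol and no other. The arrays carried RNA of bovine bone marrow mesenchymal stem cells (MSCs) encapsulated in agarose and kept in defined medium, with 1 array for each of 6 conditions. Constructs without TGF-beta3, the growth factor used to start chondrogenesis, were taken on days 3, 21 and 42 and are called undifferentiated in the labels. Chondrogenic constructs that had TGF-beta3 throughout were taken on days 21 and 42 without loading. A further one had TGF-beta3 throughout and was dynamically compressed over its last 21 days, up to day 42. The number of animals and whether cells were pooled are not given in the sources used here, and 6 arrays with no replicates limit the precision of every value.

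Chondroitin sulphate is a long chain of alternating glucuronate and N-acetylgalactosamine, built in the Golgi on serine residues of core proteins such as aggrecan. The sulphated chains hold the water that lets cartilage bear compression. UGDH oxidises UDP-glucose to UDP-glucuronate, the sugar donor for chondroitin, heparan sulphate and hyaluronan alike. PAPSS1 makes PAPS, the sulphate donor of all these sulphations. CHPF, the chondroitin polymerising factor, works with the chondroitin synthases to lengthen the chain, and CHST11 is a sulphotransferase that places sulphate on its N-acetylgalactosamine.

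Values are the authors' linear MAS5 signals in arbitrary units, which do not allow the level of a gene to be set against that of another gene. Signals at or under 15.1, the 40th percentile of all values, were treated as a floor. Between 54.9% and 65.3% of probe sets lay above it on each array. The hybridisation spikes, foreign transcripts added in fixed amounts, had a median signal of 2617 to 3727 on 4 arrays, but among the day 42 arrays with TGF-beta3 it reached 7304 unloaded and 5822 loaded. They differed by log2 0.30 between the day 21 arrays with and without TGF-beta3, and by 1.32 between the day 42 arrays. The 4 measured cartilage markers had a summed signal of 482 to 4320 without TGF-beta3 and 20573 to 33669 with it, and all 4 rose. COL9A1 and COMP were under the floor at day 3. The arm labelled undifferentiated changed in its markers after day 3, as read from the brightest probe set of each gene. From day 3 to day 21 the median over all genes was log2 0.03, and the share past 2-fold was not taken. All 4 cartilage, 3 of 4 fat and 4 of 5 blood cell markers were at least 2-fold higher at day 21 than day 3. COL2A1 had signals of 55.5 and 2739, and ADIPOQ 1.38, under the floor, and 332. At day 21 without TGF-beta3 the dimmer cartilage probe sets disagreed. Those of COL2A1 read 7.10, 0.75 and 14.3 and that of COMP 9.80, none above the floor. Those of ACAN read 50.7 and 43.9, against 18.6 and 17.3 at day 3, and that of COL9A1 19.9, against 0.23. With TGF-beta3 the same COL2A1 probe sets read 986, 110 and 1033 at day 21. The summed signal of 6 marrow stromal markers was 1180 to 2822 without TGF-beta3 and 1609 to 2225 with it, which overlap. NT5E made up most of the sums with TGF-beta3, at 1195, 1508 and 1787, so they hide the other markers. By size, 4 of the 6 were at least 2-fold lower with TGF-beta3 at day 21 and 0 higher. At day 42, 3 were lower and 1, NT5E, was higher. Of all genes, 14.0% were lower at day 21 and 15.6% at day 42. NT5E rose and CD44 fell, and VCAM1 was under the floor on all 3 arrays with TGF-beta3 and THY1 on the loaded array. Endothelial markers were under the floor on all arrays, except PECAM1 on the unloaded day 42 array with TGF-beta3. Fat and blood cell markers moved with TGF-beta3. The summed signal of 4 fat markers was 4849 to 10978 without it and 437 to 920 with it, and that of 5 blood cell markers was 176 to 549 and 30.4 to 76.3, with ADIPOQ, AIF1, CD53 and CD68 under the floor on all 3 arrays with TGF-beta3. The fat markers FABP4, LPL and PPARG fell. Their part in the results below was not tested, and in bulk RNA fewer cells of a type and less RNA per cell cannot be told apart.

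With TGF-beta3 the polymerising factor CHPF and the sulphate donor enzyme PAPSS1 rose over days 21 and 42, whereas the glucuronate enzyme UGDH did not pass the test. The sulphotransferase CHST11 was above the floor on every array with TGF-beta3 and on none without it, and its values are given as a description with no test. "Rose" and "fell" refer here to a limma fit on the 4 unloaded arrays of days 21 and 42 with a term for day, at a Benjamini-Hochberg adjusted p under 0.05 over 14839 probe sets. In that fit 5.84% of probe sets rose and 7.33% fell. The 1 residual degree of freedom is how far the differences of day 21 and day 42 disagree, and no spread between replicates was measured. The p-values rest mainly on the variance limma borrows from probe sets of similar signal. Of the 6842 genes tested, 282 were above the floor through the arrays with TGF-beta3 alone and 152 through those without it, and for these passing the filter on low values already required a difference. CHST11 was among the 282.

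UGDH, at the supply of sugar donor, had a signal of 1297 at day 3, 1302 at day 21 and 1812 at day 42 without TGF-beta3. With TGF-beta3 it was 1847 at day 21 and 659 at day 42, and 1349 under loading. The unloaded day 42 array with TGF-beta3 held the lowest of the 6 values and the other 5 lay within 1297 to 1847, so the arrays with and without TGF-beta3 overlapped. At day 21 UGDH was 1.42-fold higher with TGF-beta3, and at day 42 it was 2.75-fold lower. Its mean log2 difference was -0.48 ± 0.36 (SE, 4 arrays, adjusted p = 0.433 by limma), with a 95% interval from -1.21 to 0.25. Its sign depended on single arrays. Leaving out the unloaded TGF-beta3 array of day 42, and the day term with it, gave a mean of 0.27, and leaving out that of day 21 gave -1.22. Such fits leave 1 array in an arm and mix TGF-beta3 with day, so the size alone is given.

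PAPSS1, which makes the sulphate donor, varied least of the 4 genes among the arrays with TGF-beta3. Its signal was 587, 394 and 344 at days 3, 21 and 42 without TGF-beta3. It was 1080 at day 21, 1064 at day 42 and 1139 on the loaded array with TGF-beta3. All 3 arrays with TGF-beta3 were above all 3 without it. At day 21 PAPSS1 was 2.74-fold higher, and at day 42 it was 3.09-fold higher. The mean log2 difference was 1.54 ± 0.35 (SE, 4 arrays, adjusted p = 0.00106 by limma). Under median centring the mean was 1.30 (adjusted p = 0.153 by limma), and with arrays scaled on the spikes it was 0.73 (adjusted p = 0.631 by limma). The call was also lost on leaving out either array lacking TGF-beta3, which leaves 1 array in that arm and no day term. The mean was 1.64 without that of day 21 and 1.44 without that of day 42.

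CHPF, which lengthens the chain, had a larger difference at day 42 than at day 21. It had a signal of 51.1 at day 3, 44.8 at day 21 and 22.2 at day 42 without TGF-beta3, the last close to the floor. With TGF-beta3 it was 66.6 at day 21, 282 at day 42 and 174 on the loaded array. The arms did not overlap, but the day 21 array with TGF-beta3 lay near the day 3 array without it. With TGF-beta3 CHPF was 1.49-fold higher at day 21 and 12.7-fold at day 42. Of the 16874 probe sets compared at day 42, 96 (0.569%) were at least as far up. Its mean log2 difference was 2.12 ± 0.73 (SE, 4 arrays, adjusted p = 0.0446 by limma), just inside the threshold. Leaving out the unloaded TGF-beta3 array of day 42 gave 1.08, and leaving out the day 42 array lacking TGF-beta3 gave 1.61. Without the day 21 array lacking TGF-beta3 the mean was 2.63, and without that with TGF-beta3 it was 3.16. Of these fits only the last kept the call, and each leaves 1 array in an arm and no day term. The call was also lost under median centring (mean 1.87, adjusted p = 0.0771 by limma) and with arrays scaled on the spikes (mean 1.31, adjusted p = 0.314 by limma). The difference between the days was not tested.

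CHST11, the sulphotransferase, was seen above the floor with TGF-beta3 alone. Its signals without TGF-beta3 were 11.3 at day 3, 13.0 at day 21 and 5.03 at day 42, all under the floor and so without an order. With TGF-beta3 they were 121 at day 21, 75.2 at day 42 and 199 on the loaded array. The difference is therefore a bound. CHST11 was at least 8.02-fold higher on day 21, and the bound on day 42 was 4.96-fold. The mean log2 difference over both days, also a bound, was 2.66 and moved with the floor. A floor at the 25th percentile of all values gave 3.51, and one at the 60th gave 0.78.

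**Figure D1:**
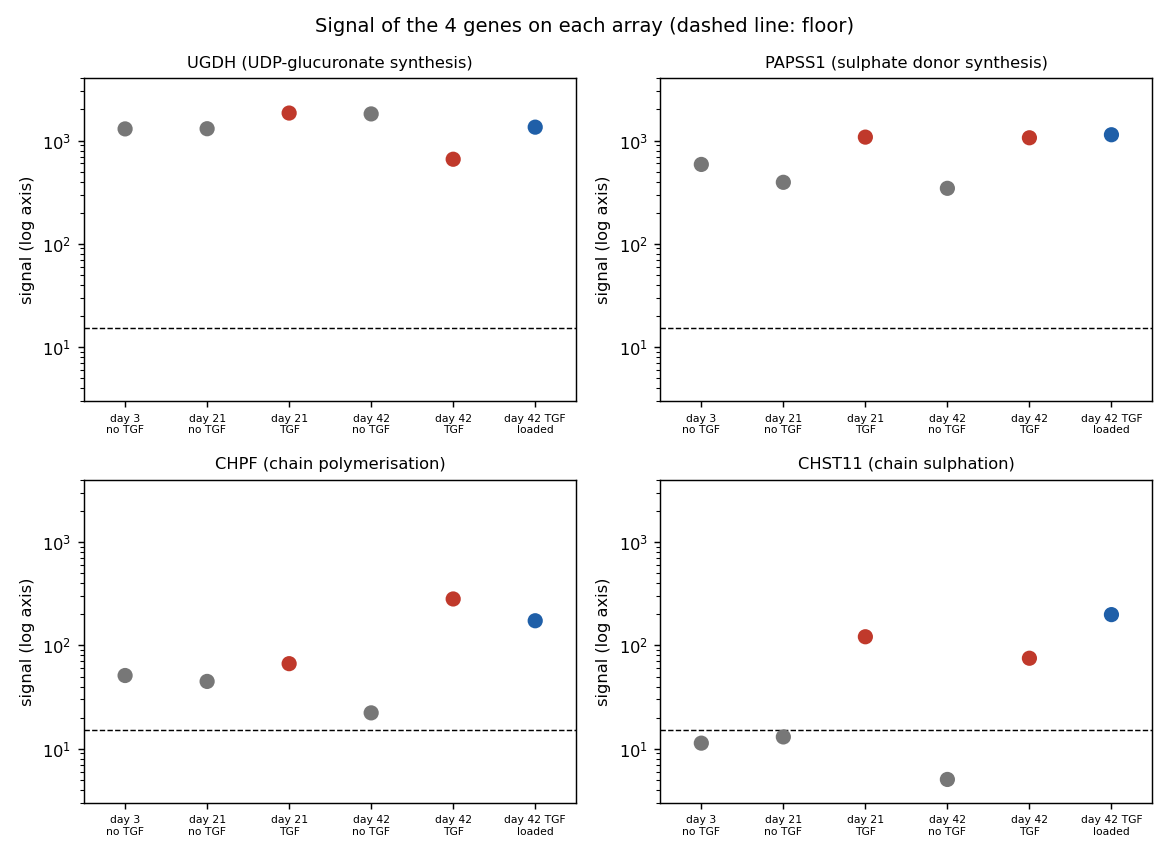
Signal on a log axis of UGDH, PAPSS1, CHPF and CHST11 on the 6 arrays, 1 point per array, grey without TGF-beta3, red with it and blue with it and loading; the dashed line is the floor of 15.1. PAPSS1, CHPF and CHST11 are higher on all 3 arrays with TGF-beta3, and UGDH is lowest on the unloaded day 42 array with TGF-beta3.

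The day 42 values depended on how arrays were brought to a common scale, and the 4 genes differed in how far. Scaling on the spikes took the median difference of all probe sets tested from log2 0.06 to -0.64, and median centring took it to -0.15. The calls over all probe sets went from 866 risen and 1088 fallen to 225 and 1302 on the spikes, and to 488 and 1008 under median centring. CHPF at day 42 had a log2 difference of 3.67 as deposited, 3.40 under quantile normalization, 3.08 under median centring and 2.35 on the spikes. The bound for CHST11 at day 42 was 2.31 as deposited, 2.35 under quantile normalization, 2.11 under median centring and 1.5 on the spikes. PAPSS1 at day 42 went from 1.63 to 0.31 on the spikes, while at day 21 it went only from 1.45 to 1.16. UGDH at day 42 was lower under all 4 scalings, from -1.37 under quantile normalization to -2.78 on the spikes. No scaling tried turned the sign of any of the 4 genes on either day.

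**Figure D2:**
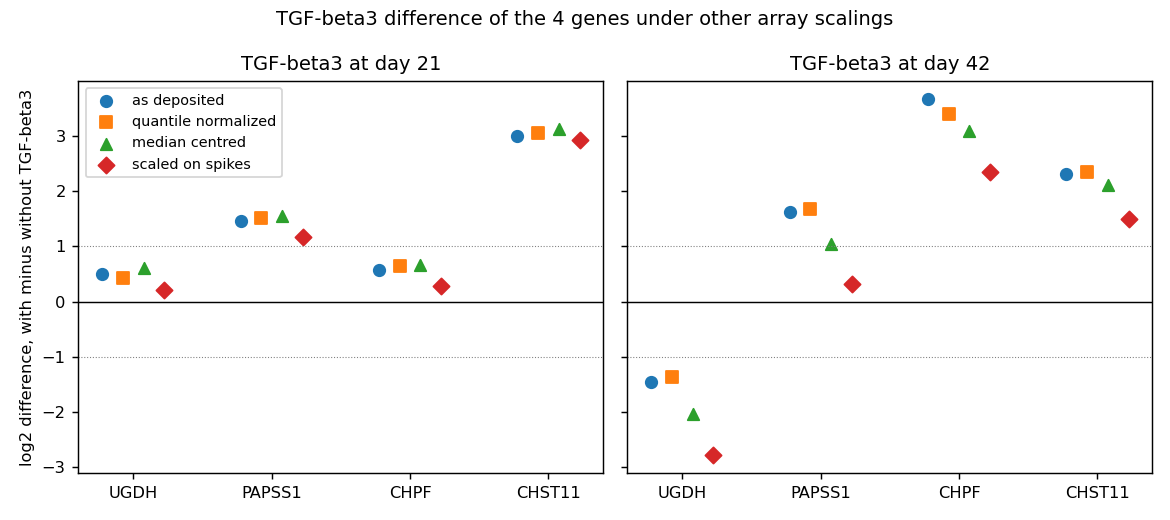
Log2 difference of signal with minus without TGF-beta3 at day 21 (left) and day 42 (right) for UGDH, PAPSS1, CHPF and CHST11, as deposited (circles), quantile normalized (squares), median centred (triangles) and scaled on the spikes (diamonds); dotted lines mark 2-fold. The settings lie close together at day 21 and spread at day 42, where PAPSS1 runs from 1.68 to 0.31 and UGDH stays below 0.

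Loaded and unloaded constructs differed in CHST11 and UGDH by more than 2-fold, and in CHPF and PAPSS1 by less. CHST11 was 2.65-fold higher on the loaded than on the unloaded day 42 array with TGF-beta3, and UGDH was 2.05-fold higher. CHPF was 1.63-fold lower and PAPSS1 differed by 1.07-fold. With 1 array on each side there was no test. By size, 8.35% of all 7678 genes compared were at least 2-fold higher and 7.20% at least 2-fold lower, against 2 and 0 of the 4 genes. The CHST11 signal of 199 was the highest of the 6 arrays. UGDH, at 1349 with loading, lay within the range of the arrays other than the unloaded one, and its log2 difference was 1.03 as deposited but 0.97 under median centring or quantile normalization, just short of 2-fold. The spikes differed by log2 -0.33 between the same arrays. On that scale CHST11 was higher by 1.73, UGDH by 1.36 and PAPSS1 by 0.42, and CHPF was lower, at -0.37.

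Time in culture went with differences of opposite sign in the 2 arms for CHPF and UGDH, which were not tested. From day 21 to day 42 with TGF-beta3, CHPF was 4.24-fold higher and UGDH 2.80-fold lower, while PAPSS1 differed by 1.01-fold and CHST11 was 1.61-fold lower. Over all genes 19.5% were at least 2-fold higher and 11.0% at least 2-fold lower, on arrays whose spikes differed by log2 1.19. On the spike scale the CHPF difference was 0.90, that of CHST11 -1.88, that of PAPSS1 -1.21 and that of UGDH -2.67. From day 21 to the loaded day 42 array CHPF was 2.61-fold higher and CHST11 1.64-fold higher, UGDH 1.37-fold lower and PAPSS1 1.05-fold higher. In that comparison 15.3% of genes were at least 2-fold higher and 7.35% lower, and the spikes differed by log2 0.86. On the spike scale CHST11 turned from 0.71 to -0.15 and PAPSS1 from 0.08 to -0.78, while CHPF was 0.52 and UGDH -1.31. From day 3 to day 21 without TGF-beta3 PAPSS1 was 1.49-fold lower, CHPF 1.14-fold lower and UGDH different by log2 0.01. On the spike scale CHPF turned to 0.32, and UGDH was at -0.07 under median centring. From day 21 to day 42 in that arm CHPF was 2.02-fold lower, UGDH 1.39-fold higher and PAPSS1 1.14-fold lower, while 3.80% of genes were at least 2-fold higher and 5.44% lower. Median centring turned PAPSS1 there from -0.19 to 0.17. CHPF there went from -1.01 to -0.64 under median centring and to -0.61 under quantile normalization, short of 2-fold. Its day 42 signal in that arm was close to the floor. These comparisons share arrays with each other and with those of TGF-beta3. CHST11 was under the floor on all arrays without TGF-beta3 and has no difference there.

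The wider route to chondroitin sulphate was followed through 42 genes, from sugar and sulphate supply to the linkage region, polymerisation and sulphation, of which 24 had a named probe set here and all 24 entered the test. On the brightest probe set of each, CHPF, GFPT1 and PAPSS1 rose with TGF-beta3, none fell and 20 did not pass. CHST11 makes the count 4, but it entered through the arrays with TGF-beta3 alone, as did CHPF2, and CHST7 entered through those without it. Across all 6842 genes tested, 7.10% rose and 7.64% fell. The median log2 difference of the 24 was 0.75, against 0.14 over all genes, and 19 of the 24 were above 0, as were 56.2% of all genes. On the spike scale 12 of the 24 and 24.8% of all genes were above 0, with medians of -0.06 and -0.61. The 24 include the 4 genes named at the start, which had been picked with earlier results of these arrays known. The count of 4 was 1 under median centring, on the spikes and without the variance trend, and that 1 was CHST11. Without the day term it was also 1, PAPSS1.

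Among the genes that supply sugar donors, GFPT1, the rate-limiting enzyme of hexosamine synthesis, rose with a mean log2 difference of 1.26 ± 0.42 (SE, adjusted p = 0.0366 by limma). Its signal was 237 without and 495 with TGF-beta3 at day 21, and at day 42 it was 108 and 299. Its second probe set also rose. GNPNAT1, which acetylates glucosamine phosphate, was 3.32-fold higher at day 21 and 1.08-fold at day 42 and did not pass (adjusted p = 0.224 by limma). UGP2, which makes the UDP-glucose that UGDH uses, was 1.39-fold lower at day 21 and 1.66-fold higher at day 42, the reverse of UGDH on both days. UAP1, which makes UDP-N-acetylglucosamine, was 2.06-fold lower at day 42 beside UGDH on its brightest probe set. Its other probe sets were 1.35-fold and 1.29-fold lower there. PGM3 and SLC35D2 did not pass either.

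In sulphate supply 4 of 8 genes had a named probe set, and of these PAPSS1 alone rose. SLC26A1, SLC26A2, PAPSS2 and SLC35B3 had none, so their response is unknown here. SLC35B2, which carries PAPS into the Golgi, had log2 differences of 0.18 at day 21 and 1.72 at day 42 (adjusted p = 0.165 by limma). BPNT2, which clears the by-product of sulphation in the Golgi, was 2.17-fold higher at day 21 and 1.10-fold lower at day 42. BPNT1, its counterpart in the cytosol, had differences of -0.26 and -0.36. In the linkage region none of the 3 measured genes passed. XYLT2, which adds the xylose that starts the chain, was 1.02-fold higher at day 21 and 4.57-fold at day 42. UXS1, which makes UDP-xylose, was 2.51-fold higher at day 42, and B3GAT3, which adds the glucuronate of the linkage region, 2.43-fold at day 21.

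All 4 measured polymerisation genes had mean differences above 0, with a median of log2 1.32 that includes the bound for CHPF2. CHPF passed on its lone probe set. CSGALNACT2, which adds the N-acetylgalactosamine that commits a chain to chondroitin, lay just outside the threshold, at 1.21 ± 0.43 (SE, adjusted p = 0.0512 by limma), with signals of 156 and 430 at day 21 and 152 and 296 at day 42. CHSY1, a chondroitin synthase, depended on the probe set. Its brightest gave 0.87 (adjusted p = 0.223 by limma), while the other 2 rose, by 1.93 (adjusted p = 0.00506 by limma) and 1.76 (adjusted p = 0.00427 by limma). CHPF2, a close relative of CHPF, was under the floor on all 3 arrays without TGF-beta3 and on the loaded array. Its mean difference, a bound, was 1.42 (adjusted p = 0.112 by limma).

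Of the 6 measured chain-modifying genes, the 5 other than CHST11 did not pass the test. CHST14, which sulphates dermatan, was 1.77-fold lower at day 21 and 2.41-fold higher at day 42. The dermatan epimerase DSE was 2.07-fold higher at day 21 and 1.14-fold at day 42, and its relative DSEL 2.82-fold higher and then 2.57-fold lower. The second DSEL probe set went the other way at day 42, at least 1.93-fold higher, and was under the floor on both arrays of day 21. UST, which sulphates the uronate, had differences of 0.05 and -0.41. CHST7, a dim sulphotransferase, was at least 2.92-fold lower at day 42 on its brightest probe set, whereas 2 of its other probe sets were higher there. The median of this step, bounds included, was 0.15, next to 0.14 over all genes.

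**Figure D3:**
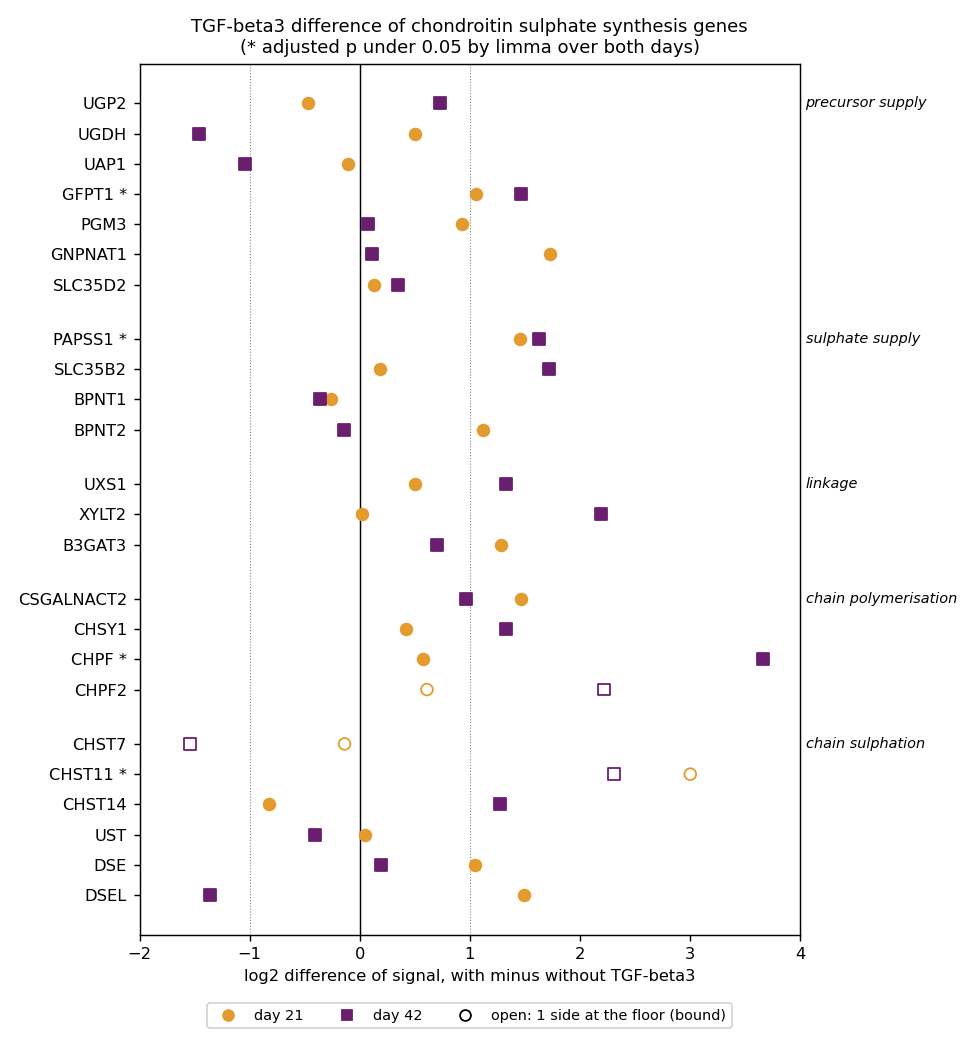
Log2 difference of signal with minus without TGF-beta3 for the 24 measured chondroitin sulphate synthesis genes, ordered by step of the route, at day 21 (circles) and day 42 (squares), on the brightest probe set of each gene; open symbols are bounds set by the floor and asterisks mark an adjusted p under 0.05 by limma, which for CHST11 is no support, since it entered through the arrays with TGF-beta3 alone. CHST11 at day 21 and CHPF at day 42 lie farthest to the right, and UGDH is on opposite sides of 0 on the 2 days.

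By size alone, 9 of the 24 genes were at least 2-fold higher with TGF-beta3 at day 21 and none lower, where 14.3% of all genes were higher and 14.0% lower. At day 42, 10 were higher and 4 lower (UGDH, UAP1, DSEL and CHST7), where 25.2% of all genes were higher and 15.6% lower. These counts use the brightest probe set of each gene. On those CHST11, GFPT1 and PAPSS1 were the genes at least 2-fold higher on both days. Of the dimmer CHSY1 probe sets, 1 was 3.7-fold higher at day 21 and 3.9-fold at day 42. Another was 2.8-fold and 4.2-fold higher. On the spike scale the day 42 counts became 3 higher and 10 lower. The spikes differed by log2 1.32 between those arrays, and scaling on them shifts all probe sets alike. Shares of all genes were not taken on that scale, so these counts do not set the list apart. Under loading 3 of 23 genes compared were at least 2-fold higher, CHST11, UGDH and UST, the last at 2.43-fold, and CHPF2 was at least 4.67-fold lower. Of all genes compared 8.35% were at least 2-fold higher there and 7.20% lower. The second UST probe set went the other way, at least 3.10-fold lower. The median under loading was log2 0.22 for the list and -0.04 for all genes.

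**Figure D4:**
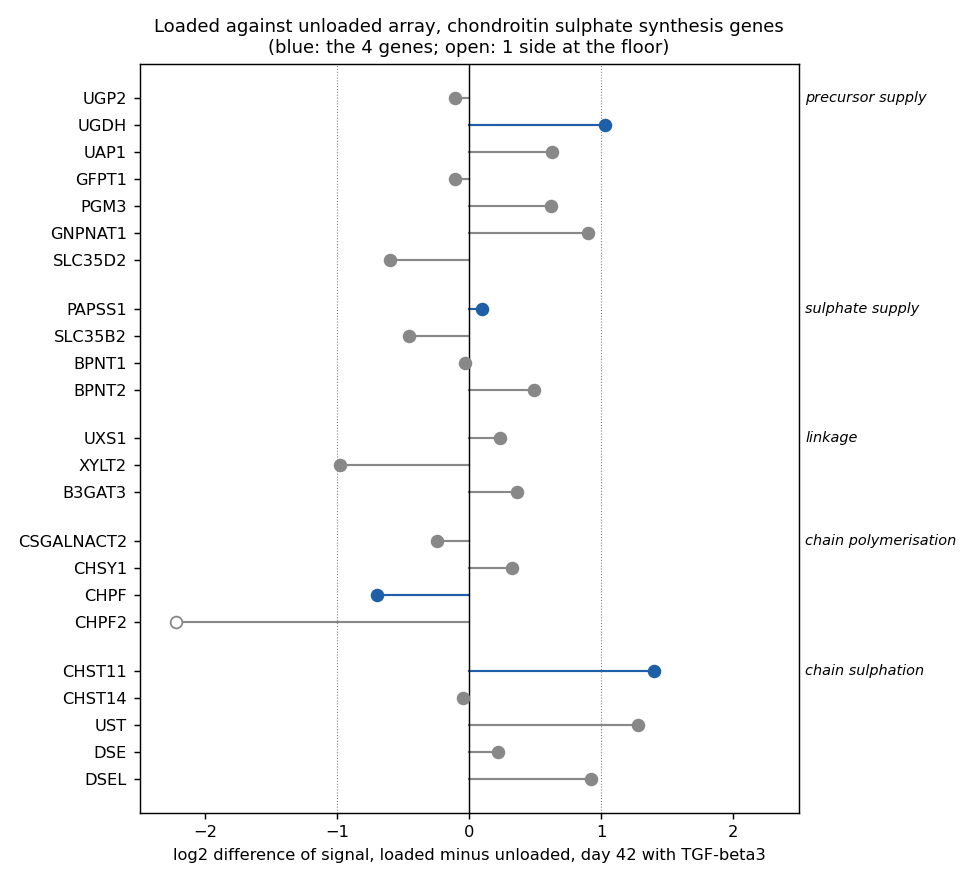
Log2 difference of signal, loaded minus unloaded, at day 42 with TGF-beta3 for the 23 chondroitin sulphate synthesis genes with a signal over the floor on either array, with UGDH, PAPSS1, CHPF and CHST11 in blue; the open symbol is a bound and dotted lines mark 2-fold. CHST11, UST and UGDH lie to the right of 1, CHPF at -0.70 and CHPF2 at -2.22.

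The proteins that carry the chains differed in direction. Across all genes tested 7.10% rose and 7.64% fell. Of 7 carriers tested ACAN and BGN rose, and VCAN and CD44 fell. SRGN, the carrier of blood cell granules, was under the floor on all 3 arrays with TGF-beta3 and entered through the others alone. Aggrecan (ACAN) had a mean log2 difference of 2.29 and biglycan (BGN) of 2.39, while versican (VCAN), the large chondroitin sulphate proteoglycan of loose matrix, had -4.79 (adjusted p = 6.45e-12 by limma). Of 7 heparan sulphate genes tested, which share the linkage region, 1 fell and none rose. It was GLCE, the epimerase that turns glucuronate to iduronate in heparan sulphate. Its signal was 3240 without and 220 with TGF-beta3 at day 21, and 2811 and 237 at day 42 (adjusted p = 1.85e-12 by limma). The chain-forming EXT1 and EXT2 had means of -0.002 and 0.68 and did not pass. The list median was -0.002 for heparan sulphate and 0.75 for chondroitin sulphate, a difference that was not tested.

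Across the 6 arrays the 4 genes did not share 1 profile. Likeness was taken as the mean absolute difference between log2 profiles, floored and each centred on its own mean, over 6671 genes above the floor on at least 3 arrays, placeholder symbols left out. CHPF was closest to PLCD1 (0.17), PRKCSH (0.20) and IQCD (0.24), all highest on the unloaded day 42 array with TGF-beta3. CHST11 was closest to KCNN4 (0.22), CHAC1 (0.24) and UPP1 (0.25), all highest on the loaded array. CHST11, CHAC1 and UPP1 were under the floor on every array without TGF-beta3 and passed through the arrays with it alone. Flooring made their values equal there, so their closeness is no support, and it enters each distance of CHST11. PAPSS1 was closest to ZNF362 (0.08), COPZ2 (0.10) and NEDD4L (0.11). ZNF362 was under the floor at days 21 and 42 without TGF-beta3, at 7.88 and 7.19. UGDH was closest to PISD (0.09), TRMO (0.10) and DECR1 (0.11), all lowest on the unloaded day 42 array with TGF-beta3. Between the 4 genes themselves the distance was 0.62 for CHPF and PAPSS1, the smallest, and 1.65 for CHST11 and UGDH, the largest. These points share arrays and array scaling, and the nearest genes were picked for being near.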

How the data were processed

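RNA of 6 constructs was measured on 1 array each. Per the labels' protocols, it was amplified linearly by ribo-SPIA and labelled with biotin. The authors deposited a linear signal intensity for each probe set. MAS5 is named in the submitters' processing notes, with no version given in the sources used here. The trimmed mean was about 150 on each array. Of 24128 probe sets, 112 controls were left out. Of the others 13292 had 1 gene symbol, 86 several and 10638 none here. Of the former, 13263 were found by Entrez identifier and 0 symbols changed. Each gene is read from its brightest probe set by mean log2 signal.

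Values under the floor were set to it, and log2 taken. A pair of arrays was compared where either signal exceeded the floor. The fit took probe sets exceeding it on at least 2 of 4 arrays and tested them with limma 3.58.1 (R 4.3.3, Python 3.11.15), with a trend on signal and 49.8 prior degrees of freedom. P-values rest mainly on variance borrowed from other probe sets and on how far the days disagree. No spread between replicates was measured, and differences between arrays may be technical. The steps were run on simulated data with changes placed in bright probe sets and, in the fit, equal on both days. Those runs do not cover dim genes such as CHPF and CHST11. The lists, rules and members were chosen with earlier results of these data known. The named-gene rule covered the 4 genes, the list genes and 3 nearest profiles each. Alternatives were other scalings, floors, filters, variance priors, thresholds, a median over a gene's several probe sets, no day term, the loaded array and left-out arrays. Sequences were not used here, and mechanical data were not analysed here.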

Additional observations from a re-analysis of the deposited data

Results flagged for a closer look

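TGF-beta3 differences had opposite signs at days 21 and 42 in 6 of the 24 chondroitin sulphate synthesis genes, against 31.2% of all 6754 genes compared on both days. Each day has 1 array per side and none of these differences between days was tested. The log2 differences at days 21 and 42 were 0.50 and -1.46 for UGDH. They were -0.47 and 0.73 for UGP2, 1.12 and -0.14 for BPNT2, and -0.82 and 1.27 for CHST14. They were 0.05 and -0.41 for UST, and 1.5 and -1.36 for DSEL. For UGDH and DSEL the loaded array with TGF-beta3 lay above the unloaded one, by log2 1.03 and 0.92. The second DSEL probe set differed the other way, with bounds of 0.95 for TGF-beta3 at day 42 and -0.95 for loading.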

How the results depend on the processing

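The direction of CHPF and PAPSS1 under TGF-beta3 held in every fit run that tested them, while their calls did not. Calls were lost as follows, as mean log2 differences. CHPF was 1.87 under median centring, 1.31 on the spikes, 2.14 with the loaded array added and 2.12 without the filter on low values, the variance trend or the day term. PAPSS1 was 1.30 under median centring, 0.73 on the spikes and 1.54 without the filter or the trend. For CHST11 no call is claimed. Its bound was 0.78 under a floor at the 60th percentile and 2.66 without the filter or the day term. UGDH turned to 0.04 when the loaded array replaced the unloaded one. Leaving out 1 array and the day term, in fits where the lone array of an arm is assumed to vary like the others, CHPF ran from 1.08 to 3.16, PAPSS1 from 1.44 to 1.64 and UGDH from -1.22 to 0.27. CHST11 had to return 2.66 without either array lacking TGF-beta3, since both lie at the floor, which shows no stability, and was not tested without either array with it, nor was CHPF or CHST11 under a floor of 100 signal units. Of the 24 list genes, CHST11 counted, 1 rose under median centring, on the spikes, without the trend or without the day term. It was PAPSS1 without the day term and CHST11 in the others. With the floor at 100, 2 rose. Without the filter 0 rose, and there limma called 0 of 24016 probe sets and 2113 had an unadjusted p under 0.05. With 1 array left out 0 to 6 rose and 0 to 1 fell. Over all probe sets the 1954 called became 1030 without the trend, 570 without the day term and 340 to 3773 with 1 array left out.

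By size, the day 21 count of 9 higher was 5 on the spikes and 2 at 3-fold, and that of 0 lower was 1 on the spikes, with the floor at the 25th percentile or at 1.5-fold. The day 42 count of 10 higher was 6 under median centring, with either higher floor or at 3-fold, and 3 on the spikes. That of 4 lower was 10 on the spikes, 2 with either higher floor and 0 at 3-fold. Under loading 3 higher became 5 on the spikes, 1 with the floor at 100, 7 at 1.5-fold and 0 at 3-fold, and 1 lower became 2 under median centring or quantile normalization, 0 with either higher floor and 4 at 1.5-fold. Of the values of the 4 genes in single comparisons under these settings, 135 kept their side of 2-fold, 11 lost it and 4 gained it. Of all 150 values 7 changed sign, each from a difference under 2-fold. The causes were not tested, and the shares of all genes past each size were not taken under these settings. Arrays could not be paired by animal or construct, because each condition has 1 array and the labels give no replicate numbers. The fit compared arrays within each day through its term for day. Dim signals limit CHST11, CHPF2 and CHST7.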

Other observations

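Genes of other glycan routes also differed with TGF-beta3, where 7.10% of all genes tested rose and 7.64% fell. Of 5 keratan sulphate genes tested B4GALT4, a galactosyltransferase, rose with a mean log2 difference of 1.78 ± 0.41 (SE, 4 arrays, adjusted p = 0.00124 by limma), and B3GNT2, which extends lactosamine chains, fell with -1.47 ± 0.41 (adjusted p = 0.00984 by limma). B4GALT1 was at -1.30 and CHST2 at -1.13, and neither passed. HAS2, a hyaluronan synthase that draws on the UDP-glucuronate made by UGDH, had a mean of 1.31 on its brightest probe set and did not pass (adjusted p = 0.0975 by limma). Its other 2 probe sets gave 1.29 and -0.46.

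Of 6 breakdown genes tested 2 fell and none rose, where 7.64% of all genes tested fell and 7.10% rose. HEXA, a lysosomal hexosaminidase subunit, had a mean of -1.37 ± 0.41 (SE, adjusted p = 0.0177 by limma), and SGSH, which removes sulphate from heparan sulphate, -2.37 ± 0.69 (SE, adjusted p = 0.0141 by limma). HYAL1, a hyaluronidase, was at 0.86 and did not pass. ARSB, which removes sulphate from the N-acetylgalactosamine that CHST11 sulphates, was at -0.08, on signals of 73.3 at day 3 and 9.18 to 34.8 later.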
